A study of Drosophila melanogaster with 6 samples.

Results

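Phosphofructokinase (Pfk) and lactate dehydrogenase (ImpL3, named Ldh in current annotation) are enzymes of sugar breakdown, and their transcripts were followed in Drosophila S2 cells after RNAi of chromatin genes. They were taken by gene symbol and are 2 of the 582 features, genes or repeat consensus sequences, that have a row in either of the authors' deposited tables. Both are rows of the dKDM4A table, which has 90 rows, and Pfk alone is a row of the HP1a table, which has 535. ImpL3 after HP1a RNAi was not analysed here. The rows at hand are those with a deposited adjusted p below 0.05, so genes without a row have no value below.

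S2 cells derive from embryos and resemble haemocytes, the blood cells of the fly, and they grew at 25 degrees in Schneider medium with 10% fetal bovine serum. They received double-stranded RNA with the transfection reagent DOTAP for 5 days, directed against dKDM4A (a histone H3 demethylase), against HP1a (a heterochromatin protein that binds methylated histone H3) or, as the control, against GFP. Polyadenylated RNA was sequenced in 6 libraries, 2 per group, and no label says that they are separate cultures, so the p-values cover only the spread between libraries, which may be technical. Each treatment has a table of its own that holds the same 2 GFP libraries.

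Glycolysis turns glucose into pyruvate in the cytosol. Pfk adds a phosphate to fructose phosphate, the committed and most tightly regulated step of the pathway. ImpL3 reduces pyruvate to lactate and thereby returns the NAD+ that glycolysis consumes. In the fly, ImpL3 was first found as a gene induced by the moulting hormone ecdysone in imaginal discs, and the nuclear receptor ERR and the hypoxia factor Sima raise glycolytic genes, ImpL3 among them.

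The genes targeted by RNAi were examined before the members, because they check the labels. Kdm4A had 2141 and 2675 normalized counts (reads divided by a size factor per library) in the libraries labelled dKDM4A RNAi, against 842 and 843 in GFP RNAi. It was therefore higher, which goes against the label, so these libraries are called by their label throughout. The HP1a gene (FBgn0003607) had 12834 and 15705 normalized counts in HP1a RNAi and 21963 and 25507 in GFP RNAi, in the direction of its label. The size factors ranged from 0.717 to 1.26, and the library totals are not known from the listed rows.

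Pfk was higher in the libraries labelled dKDM4A RNAi. It is identified as FBgn0003071 and lies on the plus strand of chromosome 2R from 10109740 to 10117457, positions that the tables and the BDGP6 (dm6) annotation give alike. The annotation has 5 transcripts, which together cover 4377 bp of exon, and no other gene overlaps it. Pfk had 2840 and 2774 normalized counts in the libraries labelled dKDM4A RNAi, against 1745 and 1786 in GFP RNAi. Both labelled libraries stood above both controls, and the 2 libraries of either group lay close together. The means were 2807 ± 46.6 in the libraries labelled dKDM4A RNAi and 1766 ± 28.4 in GFP RNAi (SD, n = 2 each), a 1.59-fold increase. The authors' deposited table gives a log2 fold change of 0.65 with a standard error of 0.08 and an adjusted p of 5.8e-14. By limma on log2(normalized count + 1) the log2 difference was 0.67 (95% interval 0.54 to 0.80, adjusted p = 0.000564 over the 90 rows). The rows were selected on these libraries beforehand, so the limma values are descriptive, and limma called all 90 of them, or 100%.

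In this comparison the Pfk difference between the libraries of each group was below the standard deviation that counting alone gives. With 2 libraries per group, such differences are too few to set the precision. The normalized counts stand for 3031 and 2437 reads in the libraries labelled dKDM4A RNAi and 2199 and 1512 in GFP RNAi. The exact 95% Poisson intervals, which cover counting error only, ran from 2740 to 2943 and from 2665 to 2887 normalized counts in the labelled libraries. In GFP RNAi they ran from 1673 to 1820 and from 1697 to 1878. No interval of a labelled library touched one of a control. The libraries labelled dKDM4A RNAi differed by 2.35% of their mean, where counting alone gives a standard deviation of 2.72% for that difference. The GFP libraries differed by 2.28%, with 3.34% from counting.

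ImpL3 was higher in the same libraries by a smaller amount. It is identified as FBgn0001258 and lies on the minus strand of chromosome 3L from 6259105 to 6262694, with 4 annotated transcripts that cover 1942 bp of exon and with no overlapping gene. ImpL3 had 3704 and 3780 normalized counts in the libraries labelled dKDM4A RNAi, against 2924 and 3132 in GFP RNAi. The groups did not overlap, although the GFP libraries were 6.86% apart, more than the 2.55% that counting gives. The means were 3742 ± 54.1 in the libraries labelled dKDM4A RNAi and 3028 ± 147 in GFP RNAi (SD, n = 2 each), a 1.24-fold increase. In the authors' deposited table the log2 fold change is 0.30 with a standard error of 0.08 and an adjusted p of 0.0241. Limma gave a log2 difference of 0.31 (95% interval 0.16 to 0.46, adjusted p = 0.00402). It lay between 0.26 and 0.36 when single libraries were left out, with adjusted p from 0.00179 to 0.0428.

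**Figure D1:**
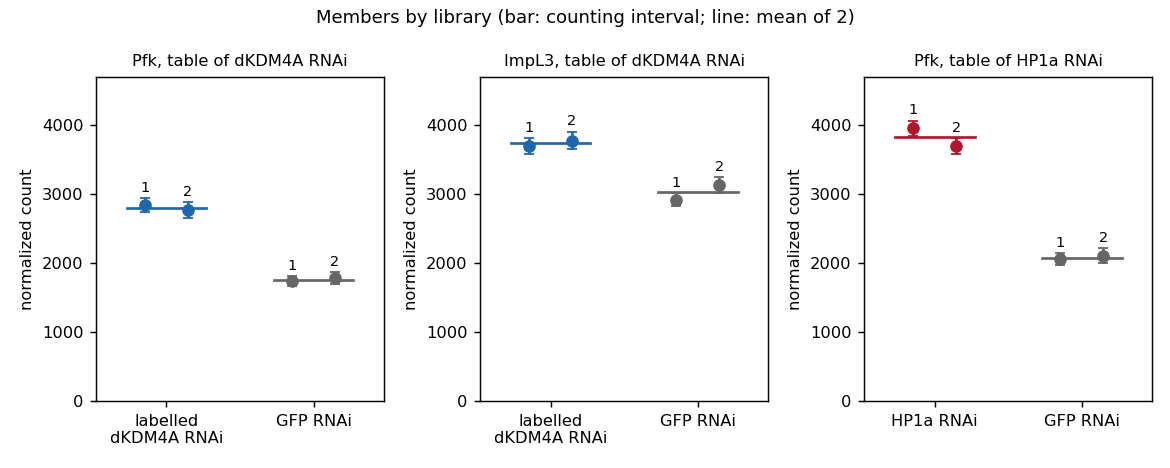
Normalized counts (vertical axis, from 0) of Pfk and ImpL3 in each library of the table named above each panel. Points are libraries with their replicate number, vertical bars the exact 95% Poisson intervals and horizontal lines the mean of 2 libraries. Each RNAi library lies above both GFP libraries of its table, by the widest margin for Pfk in HP1a RNAi (3958 and 3695 against 2058 and 2107).

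Both members passed in the dKDM4A comparison, where 1.19% of 7533 tested features passed and 0.876% passed as higher. The members were chosen with these results known, so that share is given as background only. All 90 listed rows, or 100%, had groups that did not overlap, so the separation of the members' libraries does not set them apart from other listed rows. The members stood at different places in the list. Pfk had the fourth smallest adjusted p in the authors' deposited table and ranked 10 of 66 among the higher rows by log2 fold change. ImpL3 ranked 61 of 66 among the higher rows and 73 of 90 by adjusted p. The median higher row was 1.37-fold above GFP RNAi, below Pfk and above ImpL3.

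**Figure D2:**
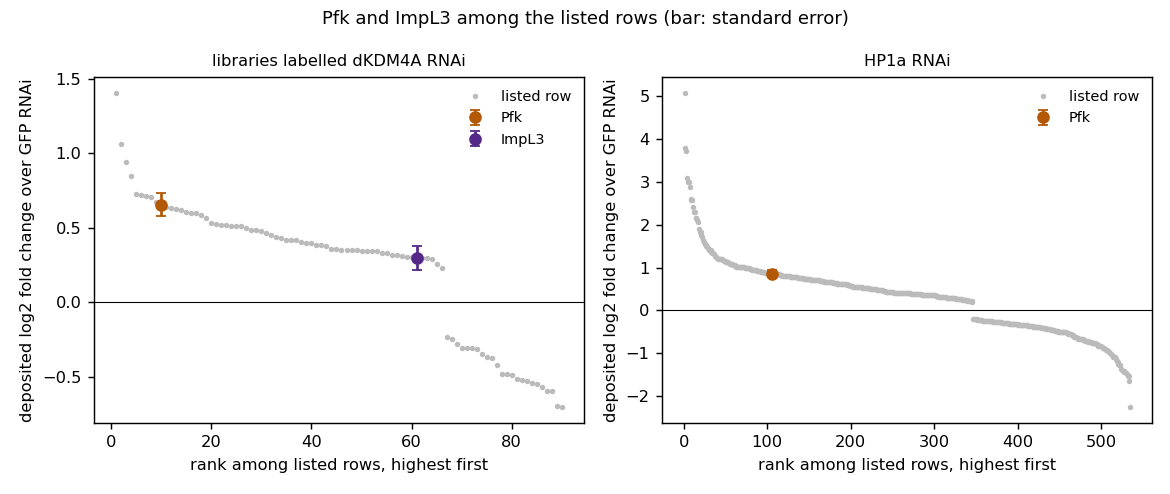
Log2 fold changes over GFP RNAi from the authors' deposited tables (vertical axis), with the listed rows ordered from highest to lowest (horizontal axis). Pfk and ImpL3 carry their standard error, and grey points are the other rows. In the libraries labelled dKDM4A RNAi Pfk ranks 10 and ImpL3 61 of 66 higher rows, and in HP1a RNAi Pfk ranks 106 of 346.

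The balance between the members also differed between these groups. There were 1.30 and 1.36 ImpL3 reads per Pfk read in the libraries labelled dKDM4A RNAi, against 1.68 and 1.75 in GFP RNAi. The 4 values did not overlap, and the mean ratio in the libraries labelled dKDM4A RNAi was 0.778 times that in GFP RNAi. A ratio within a library needs no size factor, so it does not depend on how the libraries were scaled; it shows unequal change of the members, not which of them changed. The comparison of ratios was chosen after the values were seen, and an exact two-sided permutation test gave p = 0.333, the smallest that 2 against 2 libraries allow. Per kilobase of exon, ImpL3 was the more abundant transcript in each of the 4 libraries of the dKDM4A table. On that scale it had 1907 and 1947 normalized counts per kilobase in the libraries labelled dKDM4A RNAi and 1506 and 1613 in GFP RNAi. Pfk had 649 and 634 per kilobase in the labelled libraries and 399 and 408 in GFP RNAi. The exon lengths are those of the annotation, since the gene models used for counting are not given in the sources used here.

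**Figure D3:**
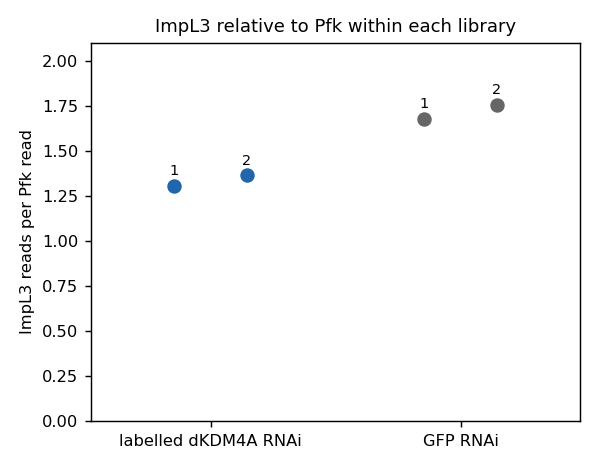
ImpL3 reads divided by Pfk reads (vertical axis, from 0) in each library of the dKDM4A table, with the replicate number above each point. The libraries labelled dKDM4A RNAi lie at 1.30 and 1.36, below the GFP libraries at 1.68 and 1.75.

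Pfk was also higher after HP1a RNAi. It had 3958 and 3695 normalized counts in HP1a RNAi, against 2058 and 2107 in GFP RNAi. The HP1a libraries were 6.87% apart, more than the 2.15% that counting gives, and both stood far above the controls. The means were 3826 ± 186 in HP1a RNAi and 2082 ± 35.1 in GFP RNAi (SD, n = 2 each), a 1.84-fold increase. The reads behind these values were 4907 and 3882 in HP1a RNAi and 2199 and 1512 in GFP RNAi. The GFP reads are those of the other table, while their normalized counts differ because each table was scaled on its own. The deposited log2 fold change is 0.86 with a standard error of 0.09 and an adjusted p of 9.5e-21, from the authors' deposited table. Limma gave a log2 difference of 0.88 (95% interval 0.64 to 1.11, adjusted p = 0.0023 over 535 rows).

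By size of change Pfk stood further down the list in this broader response, while its place by adjusted p was again near the top. In HP1a RNAi 6.46% of 8287 tested features passed, 4.18% as higher, and every listed row (100%) had groups that did not overlap. Limma called 98.1% of the listed rows. Pfk ranked 25 of 535 by adjusted p in the authors' deposited table and 106 of 346 among the higher rows by log2 fold change. The median higher row was 1.65-fold above GFP RNAi, so the Pfk increase was above that median in both tables.

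The increase of Pfk was compared between the RNAi treatments after each table was set on its own GFP mean. Relative to that mean Pfk stood at 190.0% and 177.4% in HP1a RNAi and at 160.9% and 157.1% in the libraries labelled dKDM4A RNAi. The HP1a libraries were both above the libraries labelled dKDM4A RNAi. By limma over the 43 features with a row in both tables the log2 difference was 0.21 (95% interval 0.04 to 0.38), or 1.16-fold (1.03 to 1.30). Its unadjusted p was 0.0289 and its adjusted p was 0.124, which did not pass, while 14.0% of the 43 features did. The call depended on single libraries. Limma gave an adjusted p of 0.0416 without HP1a RNAi replicate 1 and 0.00104 without HP1a RNAi replicate 2, but 0.465 and 0.514 when replicate 1 or 2 labelled dKDM4A RNAi was left out. The GFP libraries are shared by both tables.

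The rest of the pathway was described with lists of glycolysis and neighbouring metabolism. The core glycolysis list has 16 genes, from the hexokinases to pyruvate kinase and lactate dehydrogenase. Of these, 2 had a row in the dKDM4A table (12.5%), Pfk and ImpL3, and 1 in the HP1a table (6.25%), Pfk. Over all tested features the shares with a row were 1.19% and 6.46%. How many of the 16 genes were tested is not known, so the list shares cannot be compared with these. The 2 core rows of the dKDM4A table are the members, with deposited log2 fold changes of 0.65 for Pfk and 0.30 for ImpL3. Their median was 0.48. The median over all 90 rows, higher and lower together, was 0.35, which lies between the members. The core list holds the members themselves, which were chosen for their rows, so these counts and the core median carry no weight of their own. The hexokinase, aldolase, Gapdh, enolase and pyruvate kinase genes had no row in either table and were not analysed here.

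Outside the core, 82 genes stood in the lists for sugar uptake and storage, gluconeogenesis, pyruvate dehydrogenase and the TCA cycle, the pentose phosphate pathway, the glycerol phosphate shuttle, and regulators such as ERR, sima and Myc. Of the 82 genes, 0 had a row for the libraries labelled dKDM4A RNAi. There were 2 with a row for HP1a RNAi, 1 higher and 1 lower. None of the 15 regulators had a row in either table. Of all tested features 1.19% and 6.46% had a row, but how many of the 82 genes were tested is not known. Their counts were therefore not set against that share.

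AGBE, which encodes the glycogen branching enzyme, was the higher gene. It had 2865 and 2829 normalized counts in HP1a RNAi, against 2315 and 2124 in GFP RNAi. That is a 1.28-fold increase, with an adjusted p of 0.00318 in the authors' deposited table, where 4.18% of the tested features passed as higher. Pdk, which encodes the kinase that inhibits pyruvate dehydrogenase and so limits the entry of pyruvate into the TCA cycle, was the lower gene. Pdk had 2510 and 2421 normalized counts in HP1a RNAi, against 3093 and 2877 in GFP RNAi. It was 1.21-fold lower, with an adjusted p of 0.0365 in the authors' deposited table, where 2.28% of the tested features passed as lower. Both changes were smaller than that of Pfk. In both genes the HP1a and GFP libraries did not overlap, which held for every listed row (100%) and does not set them apart.

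**Figure D4:**
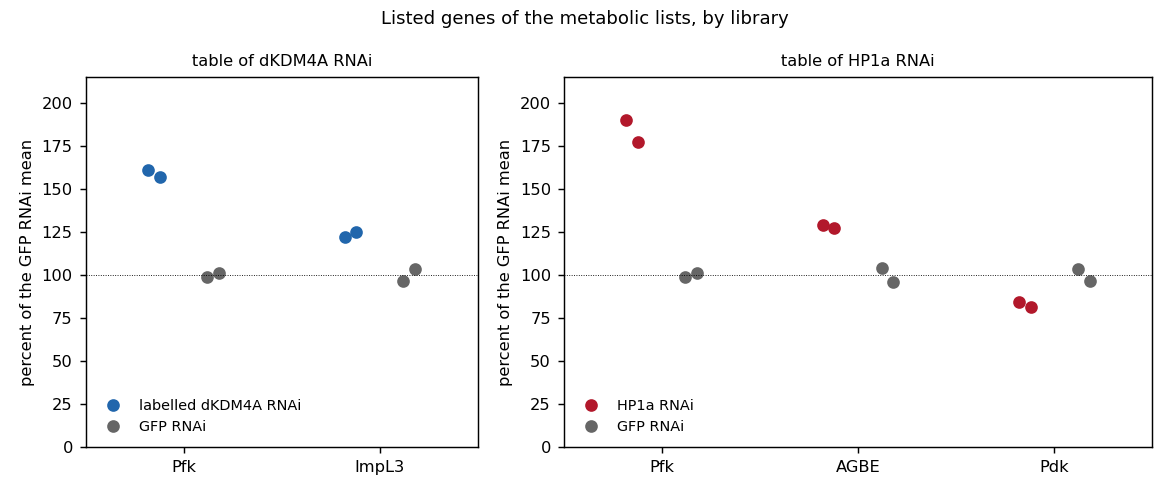
Level of each listed gene of the metabolic lists in each library, as a percentage of the GFP RNAi mean of its table (vertical axis, from 0; dotted line at 100). In HP1a RNAi Pfk lies at 190.0% and 177.4%, AGBE at 129% and 127% and Pdk at 84.1% and 81.1%, and in the libraries labelled dKDM4A RNAi ImpL3 lies at 122% and 125%.

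Other rows followed the members closely. Likeness was measured as the root mean square difference in log2(normalized count + 1) after the GFP mean was subtracted, over the 6 libraries for Pfk and the 4 libraries of the dKDM4A table for ImpL3. Among the 42 other rows in both tables the nearest to Pfk was Fas1, which encodes the cell adhesion protein fasciclin 1, at 0.0666. It stood at 201% and 195% of the GFP mean in HP1a RNAi and at 158% and 154% in the libraries labelled dKDM4A RNAi. Tep1, a thioester-containing protein of the immune response, followed at 0.0893, and Asph, an aspartyl hydroxylase gene, at 0.119. The median over the 42 rows was 0.299. Nearest to ImpL3 among 89 rows were CG17746 at 0.0215, CG1673 at 0.0309 and CG9338 at 0.0319, where the median was 0.194. These 3 genes rose 1.25-fold, 1.24-fold and 1.24-fold in the libraries labelled dKDM4A RNAi. The libraries and their scaling are common to all rows, and the likeness is a description without a test.

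**Figure D5:**
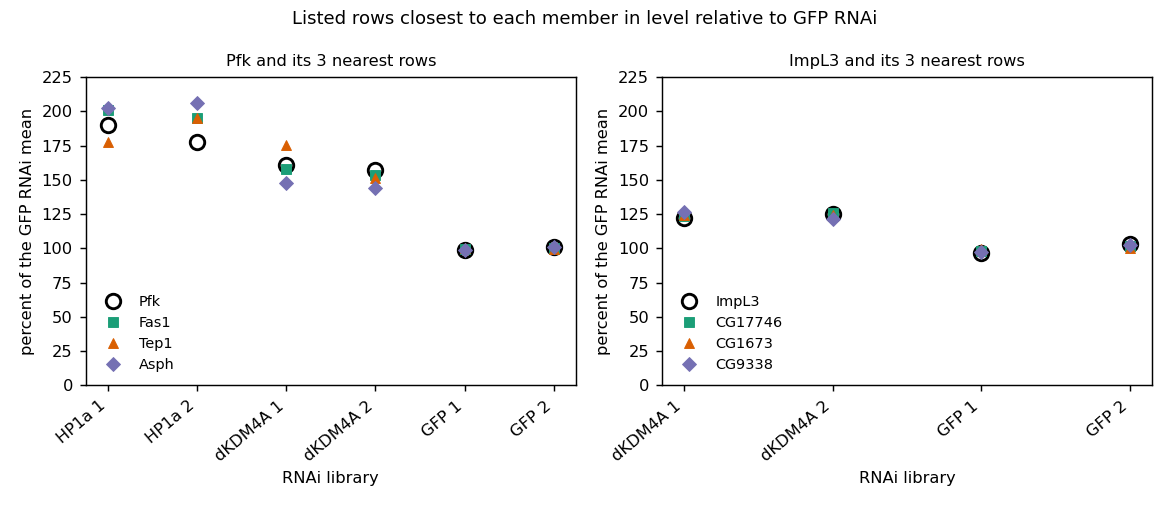
Level as a percentage of the GFP RNAi mean (vertical axis, from 0) in each library (horizontal axis) for Pfk and its 3 nearest rows, and for ImpL3 and its 3 nearest rows. Open circles are the members. Fas1 stays close to Pfk in all 6 libraries, while Asph lies above it in HP1a RNAi and below it in the libraries labelled dKDM4A RNAi.

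The members did not lie beside other listed genes. The nearest listed gene to Pfk was JhI-1 in the dKDM4A table, 189573 bp away, and Pka-R2 in the HP1a table, 83698 bp away. The nearest to ImpL3 in the dKDM4A table was RpL18, at 977509 bp. In the HP1a table, where ImpL3 itself has no row, the nearest listed gene was l(3)mbn, at 130298 bp. These neighbours were named for their position after the values were seen.

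The listed haemocyte markers were mostly higher, as were most listed rows of either table. Higher rows made up 66 of 90 in the dKDM4A table and 346 of 535 in the HP1a table. Of 24 markers 2 had a row in the dKDM4A table, Pxn and NimC1, both higher. Their summed level was 273431 to 301216 normalized counts in the libraries labelled dKDM4A RNAi and 122497 to 161530 in GFP RNAi. Of the 24 markers 6 had a row in the HP1a table, of which Pxn, drpr, lz, PPO2 and NimB1 were higher and Ance lower. Over all tested features the share in the dKDM4A table was 1.19%, with 0.876% as higher. In the HP1a table it was 6.46%, with 4.18% as higher. How many of the 24 markers were tested is not known, so the marker shares cannot be compared with these. The sum of the 6 markers was 361205 to 430775 in HP1a RNAi and 161780 to 208456 in GFP RNAi. Pxn, which encodes peroxidasin, made up most of each sum, and no listed marker was at 0. The lz row rests on few reads, 43 and 89 in HP1a RNAi and 17 and 9 in GFP RNAi. Defining markers such as Hml and srp had no row and were not analysed here. Of 8 germline and gonad markers 3 had a row in the HP1a table, vas, osk and zpg, all higher. Their sums were 915 to 932 in HP1a RNAi and 590.4 to 592 in GFP RNAi. Most of each sum was zpg, which rose 1.34-fold. In GFP RNAi the vas row rests on 23 and 14 reads and the osk row on 47 and 29. The muscle gene bt was the 1 listed muscle marker and was lower in HP1a RNAi, while neuronal and fat body markers had 0 rows in either table. The part of these markers in the Pfk and ImpL3 results was not tested, and in bulk RNA a changed number of cells of a type and a changed amount of RNA per cell cannot be told apart.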

How the data were processed

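TopHat, Bowtie and DESeq2 are named in the submitters' processing notes, with neither version nor role, and no build is named. Gene positions were the same as in BDGP6 for 81 of 81 genes (dKDM4A) and 458 of 461 genes (HP1a). The signal columns are normalized counts, per the file headers. Division by 1 size factor per library, in each table separately, was inferred from their values. Multiplied by that factor they were whole (100% within 0.1 reads), which gave the reads; the GFP reads were equal in both tables for 43 of 43 shared features. Low values were too few for a count test. The log2 fold changes, their score (log2 fold change over standard error) and their p-values, raw and adjusted, are those the authors deposited. Their Benjamini-Hochberg ranks gave the numbers tested. Libraries of a group differed by more than sampling noise (chi-square per degree of freedom 12.7 to 61.0), so each counted as 1.

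Limma 3.58.1 (R 4.3.3) was run within each table on log2(normalized count + 1), which understates changes of low features. The minimum mean was 1, with Benjamini-Hochberg adjustment over the rows of the table. Limma was also run on simulated counts in which most rows were unchanged. The listed rows had all been selected by their deposited adjusted p, so that run does not show how limma performs on them. All adjusted p-values not attributed to the authors come from limma. 1 row without values per table was left out. Members, lists and the rule for named genes (members, RNAi targets, listed list members and the 3 rows nearest each member) were chosen with earlier results of these data known. Of 147 list entries 144 matched a gene ID. Alternatives were pseudocounts of 0.1 and 5, no filter, a mean of at least 100, each library left out, the replicate block, a threshold of 0.01 and the deposited values. Other work used Python 3.11.15 with pandas 2.3.3, numpy 2.4.6 and scipy 1.17.1; figures used matplotlib 3.10.9.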

Additional observations from a re-analysis of the deposited data

How the results depend on the processing

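There were 45 alternatives to the 4 limma results for Pfk and ImpL3, and not all of them could have changed a call. A deposited adjusted p below 0.05 was the condition for a row. A limma adjusted p of 0.124 cannot pass at 0.01. Leaving out the filter changed no value here, and a mean of at least 100 changed no log2 difference. Of the 45 alternatives, 43 kept direction and side of the threshold and 0 reversed. The exceptions concerned the log2 difference of Pfk, HP1a RNAi minus the libraries labelled dKDM4A RNAi, which was 0.16 without HP1a RNAi replicate 1 and 0.26 without HP1a RNAi replicate 2, and then passed; over all libraries left out in turn it ranged from 0.16 to 0.26. The cause was not tested. With single libraries left out, a lone library is assumed to vary like the others, and Pfk ranged from 0.65 to 0.69 in the libraries labelled dKDM4A RNAi and from 0.83 to 0.93 in HP1a RNAi. Limma called 98.1% of the listed rows of the HP1a table, 62.4% without HP1a RNAi replicate 2 (62.4% to 71.6% over single libraries left out) and 41.3% at the stricter adjusted p below 0.01. In the dKDM4A table it called 93.3% to 100% with single libraries left out. The labels do not say that a replicate number marks a shared batch. Deviations of same-numbered libraries correlated at 0.28 and 0.24 across the rows of the dKDM4A and HP1a tables. With the replicate block the log2 differences stayed at 0.67, 0.31 and 0.88 with adjusted p = 0.000606, 0.00362 and 0.000353 by limma, limma called 100% and 95.9% of the rows of the dKDM4A and HP1a tables, and no call of Pfk or ImpL3 changed. The difference in ImpL3 reads per Pfk read was between -0.42 and -0.34 with each library left out. ImpL3 in HP1a RNAi has no value, so its alternatives were not run. Rescaling the libraries would need features without a row. Pfk rests on 1512 to 4907 reads per library and ImpL3 on 2652 to 3953, and with 2 libraries per group the spread between libraries is poorly known.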
